A study of Mus musculus with 4 samples.

Results

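The collagens described here are the measured mouse genes named Col, number, a, number, without the chains of the cartilage collagens II and IX. Probes were assigned through the array's annotation with older symbols updated, and the brightest probe, the one with the highest mean over the 4 arrays, stood for each gene. This gave 37 collagen genes of 16637 named genes, read by 53 probes. RNA of whole mandibles of C57BL/6 mouse embryos at E11.5 was hybridised to Cy5-labelled one-colour arrays, 1 sample per array. Of these arrays, 2 held wild-type control mandibles and 2 held mandibles with conditional Bmp4 overexpression (Bmp4 OE), kept on doxycycline for 24 hours to switch the transgene on. Bmp4 encodes a secreted bone morphogenetic protein, and the comparison asks how transcription in the jaw responds to more of it. The driver of the transgene is not given in the sources used here, nor is it stated whether controls received doxycycline or whether arrays of a group came from separate embryos. If controls went without the drug, doxycycline and transgene cannot be told apart. With the source of the arrays unstated, the spread behind every p-value is that of these 4 samples and could be technical.

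Collagens are secreted or membrane-bound proteins of 3 chains wound into a triple helix of glycine-rich repeats. Fibrillar collagens build the banded fibrils of mesenchyme, skin, tendon and bone. Type IV collagens form the sheet of basement membranes, beaded and hexagonal networks fill the matrix around cells and vessels, FACITs (fibril-associated collagens with interrupted triple helices) decorate fibrils, and transmembrane collagens sit in the cell surface. At this stage the mandible is mostly neural crest mesenchyme under an epithelium, and its cartilage and bone are only beginning to form. Types XV and XVIII were counted here with the basement membrane class, types VI, VII, VIII and X with the networks, and type XXVI with none.

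Bmp4 itself read 11.96 and 12.07 in the control arrays and 15.27 and 15.31 in the Bmp4 OE arrays (log2 intensity). All values below are log2 intensities as deposited, or log2 fold changes of Bmp4 OE over control with the standard error (SE) of the fit. The number of arrays limits the precision. On each array the lower quartile of all probes was 6.79 and the median 7.95. Of the 8 mandibular mesenchyme markers none lay below that quartile on all 4 arrays, so the labelled tissue's markers were present. Of the 8, 2 rose (Prrx2 and Msx1, by 1.17 and 1.01 on the log2 scale), 1 fell (Twist1, with -1.19) and 5 did not pass. Their summed linear intensity was 66600 to 66930 in controls and 73920 to 74230 in Bmp4 OE. Bright genes weigh most in this sum, among them Msx1 and Twist1, which moved in opposite directions. In whole tissue, fewer cells of a type and less RNA per cell cannot be told apart.

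More collagens fell than rose after Bmp4 overexpression. At an adjusted p of 0.05 in limma, a linear model with moderated variances adjusted over all probes, 9 of the 37 fell, 2 rose and 26 did not pass. Among all named genes 9.54% fell and 7.39% rose, so the share of collagens that fell, 24.3%, was above the background and the share that rose, 5.41%, was near it. The submitters' own threshold asks for a 2-fold change and p of 0.05, taken here as unadjusted. By it 5 collagens were lower and 1 was higher, against 1.76% and 1.56% of all named genes. The 5 were Col8a1, Col27a1, Col6a3, Col23a1 and Col8a2, and the 1 was Col24a1. The median log2 fold change of the collagens was -0.11, beside 0 for all named genes. Values of the groups did not overlap in 17 collagens that were lower and 6 that were higher, where the background was 32.3% and 31% of named genes. Together these 23 were 62.2% of the collagens, near the 63.3% of all named genes. The levels of 5 collagens, Col4a3, Col4a4, Col6a6, Col10a1 and Col12a1, lay below the lower quartile on all 4 arrays, where a change can hardly be measured.

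These calls need all 4 arrays. Without Control replicate 1, Control replicate 2, Bmp4 OE replicate 1 or Bmp4 OE replicate 2 the fit kept 1 residual degree of freedom, and 0 of the 37 collagens passed in limma, as did 0 of all probes. In these fits the log2 fold change lay between -1.805 and -1.625 for Col8a1, the largest fall. It lay between 1.015 and 1.165 for Col24a1, the largest rise, and between -0.915 and -0.545 for Col26a1.

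**Figure D1:**
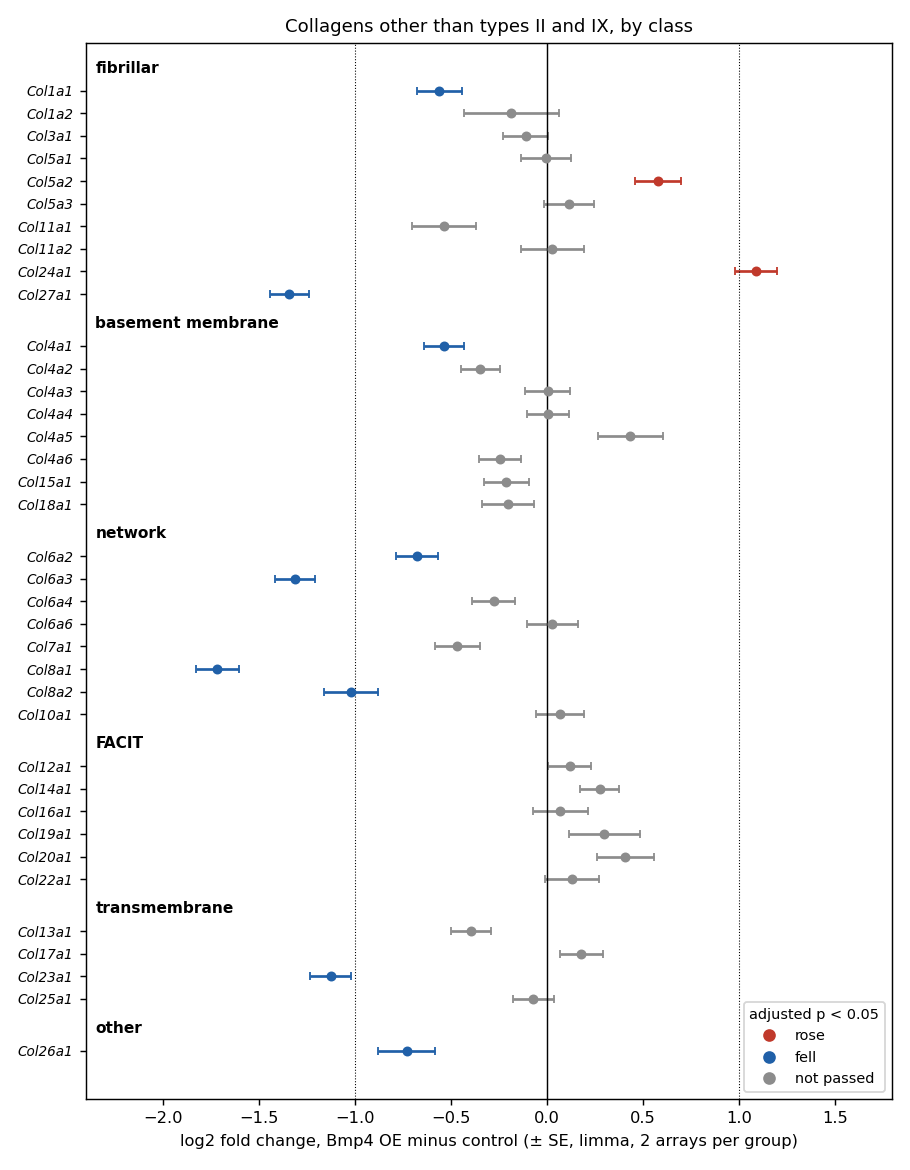
Log2 fold change of Bmp4 OE over control for each of the 37 collagens, by class, as points with the SE of the limma fit (2 arrays per group); dotted lines mark a 2-fold change. The network collagen Col8a1 at -1.72 lies furthest to the left, followed by Col27a1 at -1.34, and Col24a1 at 1.09 is furthest to the right.

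In the network class, 4 of the 8 members fell and 4 did not pass, with a median log2 fold change of -0.57. Type VIII collagen is a short-chain collagen that forms hexagonal lattices, known from blood vessel walls and from the membrane under the corneal endothelium. Col8a1, which encodes its alpha 1 chain, read 8.93 and 8.92 in controls and 7.30 and 7.12 in Bmp4 OE. Both Bmp4 OE arrays lay far below both controls, and the gene fell 3.28-fold (log2 fold change -1.72 ± 0.11, limma adjusted p = 0.00328). Col8a2, the partner chain, read 8.45 and 8.25 in controls and 7.20 and 7.46 in Bmp4 OE, a 2.03-fold fall (adjusted p = 0.0141). The second probe of Col8a1 also fell, by 1.31 on the log2 scale, whereas the second probe of Col8a2, which read 6.99 to 7.33, did not pass at 0.10 on that scale. Over the mean of its probes Col8a2 had -0.46 (adjusted p = 0.0482), short of 2-fold.

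Endothelial and pericyte marker lists are given beside type VIII because vessels are a known site of this collagen. Of 7 measured endothelial markers 1 rose (Cldn5) and 0 fell, and their summed linear intensity was 7680 to 7725 in controls and 9470 to 9527 in Bmp4 OE. Of 7 pericyte markers 2 rose (Rgs5, Kcnj8) and 1 fell (Pdgfrb), with sums of 6018 to 6135 and 6024 to 6345. A sum weighs bright genes most, here Pdgfrb, which had -0.515 on the log2 scale. It hides the dimmer Rgs5, which read 6.41 and 6.53 in controls and 9.51 and 9.33 in Bmp4 OE. No marker of either list lay below the lower quartile on all arrays. The endothelial sums were thus higher in Bmp4 OE, and the pericyte sums overlapped while single pericyte markers moved both ways. The part of these cells in the fall of Col8a1 and Col8a2 was not tested.

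Type VI collagen, the beaded filament of the matrix next to cells, also went down. Col6a3, whose chain is the longest of the trimer, read 13.04 and 13.08 in controls and 11.70 and 11.80 in Bmp4 OE, a 2.48-fold fall (-1.31 ± 0.10, adjusted p = 0.00477). Col6a2 read 9.27 and 9.11 in controls and 8.52 and 8.51 in Bmp4 OE, a 1.6-fold fall (-0.68 ± 0.11, adjusted p = 0.0209). The Bmp4 OE values of both genes lay below both control values. The other 2 probes of Col6a3 read 7.12 to 7.79, below the median of all probes, and gave -0.29 and -0.19 without passing, and the mean of the 3 probes gave -0.60 (adjusted p = 0.032). The related chains Col6a4 and Col6a6 stood at -0.28 and 0.03 (log2 fold change), neither passing. The third chain of the classical trimer, Col6a1, was not analysed here.

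Col7a1, which encodes the anchoring fibrils that tie epithelium to the tissue below, missed the threshold narrowly. It read 9.96 on both control arrays and 9.39 and 9.60 in Bmp4 OE (-0.47 ± 0.12, adjusted p = 0.0546), and its second probe gave -0.41. Col10a1, the collagen of hypertrophic cartilage, stayed between 6.17 and 6.43 on all arrays.

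The fibrillar class moved both ways: 2 of its 10 members rose and 2 fell, 6 did not pass, and the median log2 fold change was -0.06. The changes past 2-fold were in types XXIV and XXVII, which form a branch of their own among the fibrillar collagens. Col24a1, known from developing bone and cornea of the mouse, read 10.49 and 10.48 in controls and 11.65 in Bmp4 OE replicate 1, the Bmp4 OE arrays averaging 11.58 ± 0.11 (SD, n = 2), a 2.13-fold rise (1.09 ± 0.11, adjusted p = 0.00764). Col27a1, known from developing cartilage, read 9.30 and 9.25 in controls and 7.91 and 7.96 in Bmp4 OE, a 2.53-fold fall (-1.34 ± 0.10, adjusted p = 0.00436). The groups did not overlap in either gene. The second probe of each gene passed in the same direction, with 0.97 for Col24a1 and -0.85 for Col27a1.

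The letters upstream of these genes are shown for the largest opposite changes in the fibrillar class and for both chains of type VIII, which fell together. Each line gives the 250 bases before the gene's start in RefSeq on GRCm38.p6, read 5′ to 3′ on the gene's strand. The windows are chr3:145292222-145292471 (+) for Col24a1, chr4:63215162-63215411 (+) for Col27a1, chr16:57754738-57754987 (-) for Col8a1 and chr4:126286544-126286793 (+) for Col8a2. Capitals mark CAGAC or its reverse complement GTCTG, the letters of the Smad box to which Smad4, the shared mediator of BMP and TGF-beta signals, is known to bind.
Col24a1: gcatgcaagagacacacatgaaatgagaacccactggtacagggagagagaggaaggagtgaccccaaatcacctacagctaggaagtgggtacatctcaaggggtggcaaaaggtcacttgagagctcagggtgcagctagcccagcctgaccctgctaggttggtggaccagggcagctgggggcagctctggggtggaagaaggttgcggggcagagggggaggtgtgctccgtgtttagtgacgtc
Col27a1: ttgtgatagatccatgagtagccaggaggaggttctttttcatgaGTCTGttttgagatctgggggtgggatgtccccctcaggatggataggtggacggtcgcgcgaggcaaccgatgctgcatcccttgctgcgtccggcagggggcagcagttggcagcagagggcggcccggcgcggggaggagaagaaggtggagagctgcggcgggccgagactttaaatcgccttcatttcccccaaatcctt
Col8a1: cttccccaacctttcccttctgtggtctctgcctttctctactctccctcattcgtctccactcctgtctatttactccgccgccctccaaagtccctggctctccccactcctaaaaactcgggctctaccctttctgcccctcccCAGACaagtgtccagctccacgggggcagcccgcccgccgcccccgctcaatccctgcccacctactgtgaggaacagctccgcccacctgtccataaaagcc
Col8a2: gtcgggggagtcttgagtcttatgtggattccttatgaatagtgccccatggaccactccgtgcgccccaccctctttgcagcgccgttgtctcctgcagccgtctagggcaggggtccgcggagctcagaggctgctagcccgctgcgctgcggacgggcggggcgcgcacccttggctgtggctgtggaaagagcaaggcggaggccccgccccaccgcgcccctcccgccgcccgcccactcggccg

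CAGAC, on either strand, was found 1 time in the Col27a1 window and 1 time in the Col8a1 window, and 0 times in those of Col24a1 and Col8a2. Of the 30 collagens with such a window 14 held it, and of the 8 called ones 4 did (Col27a1, Col6a2, Col6a3 and Col8a1), against 42.2% of 32851 windows of all genes. Here and below collagens are counted by gene, with 32 windows for the 30 and any window counting, whereas the background is by window. GGCGCC, the GC-rich element of BMP-activated Smads, was in the windows of 4 of the 30 collagens, of which Col4a1 was called, and in 9.59% of all windows. ACAAAG, letters bound by Sox and LEF factors, was in 3 of the 30 and in 0 of the 8 called ones, against 16.5% of all windows. GGCGCC reads the same on both strands, and CAGAC followed by AAAG would also hold ACAAAG. These matches describe letters in 1 window per start and say nothing of binding.

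Type I collagen, the main fibril of skin and bone, has chains encoded by Col1a1 and Col1a2. Col1a1 read 10.79 and 10.60 in controls and 10.10 and 10.17 in Bmp4 OE, a 1.47-fold fall without overlap (-0.56 ± 0.12, adjusted p = 0.0352). Col1a2 read 13.35 and 13.47 in controls but 13.60 and 12.85 in Bmp4 OE, so the Bmp4 OE arrays lay on either side of the controls. Its log2 fold change of -0.19 ± 0.25 did not pass (adjusted p = 0.655), and it was 0.19 without Bmp4 OE replicate 2. Col3a1, the fibril collagen of soft tissue, read 15.36 and 15.39 in controls and 15.37 and 15.16 in Bmp4 OE, near the top of the scale at 16. Its second and dimmer probe gave -0.42 ± 0.15 and did not pass (adjusted p = 0.114).

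Type V collagen seeds and limits the width of type I fibrils. Col5a2 read 11.58 and 11.71 in controls and 12.32 and 12.13 in Bmp4 OE, a 1.49-fold rise (0.58 ± 0.12, adjusted p = 0.0354). The other 2 probes of the gene did not pass, with 0.17 and 0.27, and the mean of its 3 probes gave 0.34 (adjusted p = 0.0728). Its partner chains Col5a1 and Col5a3 had log2 fold changes of -0.005 and 0.12, the latter -0.003 with arrays centred on housekeeping genes. Col11a1, a chain of the thin fibrils of cartilage, had -0.54 ± 0.17 without overlap between groups and did not pass (adjusted p = 0.0862), while Col11a2 had 0.03, and -0.09 with that centring.

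Cartilage and bone marker lists are given beside the fibrillar class. Of 8 cartilage markers 2 rose (Sox5, Sox9) and 0 fell, 4 were above 0 and 4 below, and the median log2 fold change was -0.03. Their summed linear intensity was 16060 to 17180 in controls and 25540 to 28890 in Bmp4 OE. Of 6 measured bone markers 1 fell (Spp1) and 0 rose, with sums of 2939 to 3116 and 2238 to 2325. Acan and Hapln1, which encode cartilage matrix proteins, did not pass, at -0.51 and -0.33 on the log2 scale. Col2a1, a brighter matrix gene of the list, went the other way with 0.52 and did not pass either (limma adjusted p = 0.052). Acan was dim, at 6.75 to 7.43, with Bmp4 OE replicate 1 below the lower quartile. Of the defining markers, Matn1 of cartilage and Runx2 of bone lay below the lower quartile on all 4 arrays. The part of these cells in the fibrillar values was not tested.

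**Figure D2:**
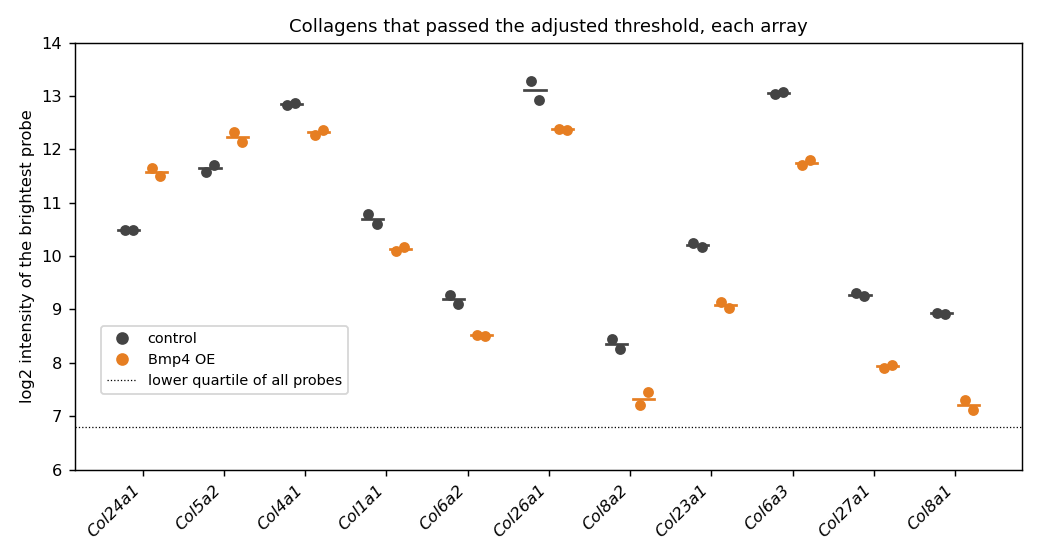
Log2 intensity of the brightest probe on each array (points) with the group mean (bar) for the 11 collagens that passed, ordered from the largest rise to the deepest fall; the dotted line is the lower quartile of all probes, 6.79. In each gene the 2 Bmp4 OE arrays lie on 1 side of the 2 controls, and Col8a1 and Col8a2 come close to the dotted line.

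Among the collagens of basement membranes, 1 of 8 fell, 0 rose and 7 did not pass. Col4a1 and Col4a2 encode the chains of the common type IV network and are head-to-head neighbours on 1 chromosome. Col4a1 read 12.84 and 12.87 in controls and 12.27 and 12.37 in Bmp4 OE, a 1.45-fold fall (-0.54 ± 0.10, adjusted p = 0.0303). Col4a2 read 13.68 and 13.76 in controls and 13.37 and 13.38 in Bmp4 OE (-0.35 ± 0.10), and it did not pass (adjusted p = 0.0785). In both genes the Bmp4 OE arrays lay below the controls. Col4a3 and Col4a4, chains of kidney and lung basement membranes, were dim on all arrays. Col4a5 and Col4a6, another neighbouring pair, did not pass, with log2 fold changes of 0.44 ± 0.17 and -0.25 ± 0.11, and their second probes gave 0.33 and -0.28. Col15a1 and Col18a1, the latter the source of the fragment endostatin, had -0.21 and -0.20, both without overlap between groups and without passing.

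Epithelial markers, like the endothelial ones, belong to cells that lie on basement membranes. Of 8 epithelial markers 4 rose (Cdh1, Krt8, Krt18, Cldn6) and 2 fell (Krt14 and Krt5), and none lay below the lower quartile on all arrays. Their summed linear intensity was 37660 to 39450 in controls and 32230 to 33560 in Bmp4 OE. That sum weighs bright genes most, among them Krt14, which read 14.73 and 14.85 in controls and 13.96 and 14.04 in Bmp4 OE. Over the 8 genes the log2 fold changes had a median of 0.42, with 5 above 0. The part of epithelial and endothelial cells in the Col4a1 result was not tested.

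In the transmembrane class Col23a1 fell and the other 3 members did not pass. Col23a1, a collagen of the cell surface, read 10.25 and 10.17 in controls and 9.14 and 9.03 in Bmp4 OE, a 2.18-fold fall (-1.13 ± 0.11, adjusted p = 0.00687). Its second probe fell further, by 1.47 on the log2 scale. Col13a1, known from muscle and nerve contacts, read 8.97 and 8.98 in controls and 8.63 and 8.53 in Bmp4 OE and did not pass (-0.40 ± 0.10, adjusted p = 0.0596). Col17a1, the collagen of epithelial hemidesmosomes, had 0.18 ± 0.11. Col25a1, a collagen of neurons and muscle, had -0.07 at its brightest probe and 0.09 at the other.

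Col26a1, which the array annotation lists under its older symbol Emid2 and which belongs to none of the 5 classes, was among the called genes. It read 13.29 and 12.92 in controls and 12.39 and 12.36 in Bmp4 OE, a 1.66-fold fall without overlap (-0.73 ± 0.15, adjusted p = 0.0337). The gene is known from testis and ovary of the mouse, and a single probe reads it here.

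The FACIT class without type IX gave no call in limma: 0 of 6 members passed. An unadjusted p under 0.05 was reached by 2 of the 6 (Col14a1 and Col20a1) and by 6063 of the 16637 named genes. All 6 log2 fold changes were above 0, between 0.07 for Col16a1 and 0.41 ± 0.15 for Col20a1, as were 8255 of the 16637 named genes. With arrays centred on housekeeping genes Col16a1 turned to -0.05, and Col12a1, dim on all arrays, had 0.002. Col20a1 read 10.39 and 10.37 in controls and 10.97 and 10.61 in Bmp4 OE. Col14a1, which lies on fibrils of tendon and skin, read 8.31 and 8.40 in controls and 8.61 and 8.65 in Bmp4 OE (0.28 ± 0.10, adjusted p = 0.132). In these 2 genes the groups did not overlap, and in the other 4 they did. That is 33.3% without overlap, below the 63.3% of all named genes. Col19a1, a collagen of muscle and nerve, had 0.30 at its brightest probe and -0.30 at the other. For scale, the FACIT chains left out here, those of type IX, had log2 fold changes of 1.91 to 2.43 in the same fit, and the difference between the types was not tested.

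Chains of the same collagen type were also compared within arrays, at their brightest probes. So were Col24a1 and Col27a1, which are chains of different types and moved in opposite directions. The groups were already apart in each of these genes, so the lack of overlap in their ratio was fixed in advance. The log2 ratio of 2 chains within an array was compared between groups for 6 pairs, by an exact permutation test (two-sided), whose smallest possible p with 2 arrays against 2 is 0.333. The ratio of Col5a2 to Col5a1 was higher by 0.59 in Bmp4 OE and that of Col8a1 to Col8a2 lower by -0.70. The ratio of Col6a3 to Col6a2 changed by -0.64 at the brightest probes, but over the mean of its probes Col6a3 had a log2 fold change of -0.60, close to the -0.68 of Col6a2. Likewise Col8a2 had -0.46 over the mean of its probes, and Col8a1 -1.51. The ratio of Col4a1 to Col4a2 changed by -0.19. At the brightest probes of these 4 pairs, and in Col24a1 against Col27a1 with 2.43, the groups did not overlap (exact p = 0.333 each). The ratio of Col1a1 to Col1a2 changed by -0.38 with overlap (exact p = 0.667). No pair could reach a p of 0.05 in this design, so these values are descriptions.

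Several probes read 14 of the 37 collagens, which allows a check within the arrays. Of the 16 further probes, 13 had the sign of the brightest probe of their gene. Of the 7 called genes with several probes, Col8a1, Col23a1, Col24a1 and Col27a1 had a second probe that passed the same way. The further probes of Col5a2 and Col6a3 had the same sign without passing, and that of Col8a2 had the opposite sign without passing. The calls of Col1a1, Col4a1, Col6a2 and Col26a1 rest on 1 probe each.

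**Figure D3:**
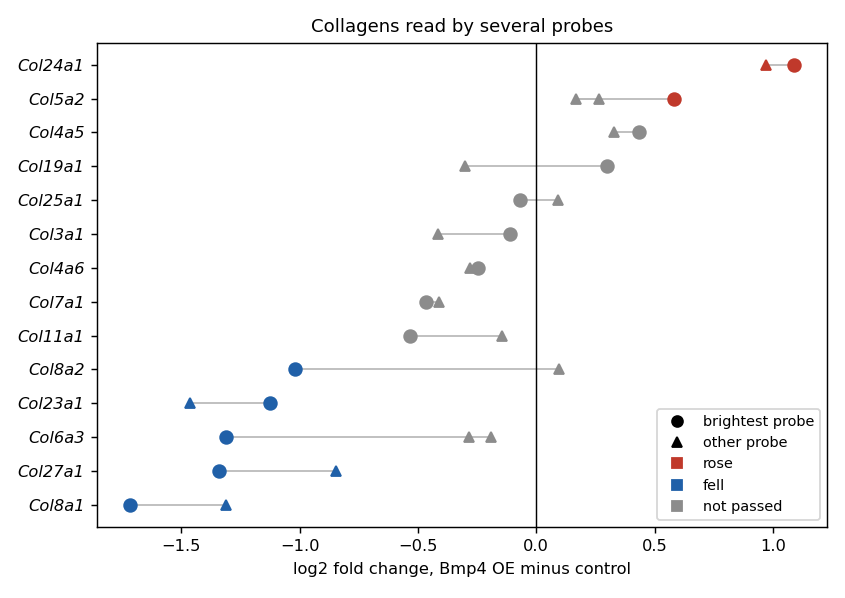
Log2 fold change of Bmp4 OE over control at the brightest probe (circles) and further probes (triangles) of the 14 collagens with several probes, coloured by whether the probe passed the adjusted threshold. Both probes of Col8a1, Col23a1, Col24a1 and Col27a1 passed on the same side of 0, while those of Col8a2 and Col6a3 lie furthest apart.

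Genes that make, arrange, bind and cleave collagen are given as 6 lists. Of their 66 measured genes 15 passed, 8 rising and 7 falling, which is 22.7% beside the 16.9% of all named genes that passed either way. The rises were 12.1% and the falls 10.6%, beside 7.39% and 9.54%, and nothing particular to these lists is read from the counts. Of 15 enzymes and partners that hydroxylate or glycosylate collagen chains, 2 rose, 1 fell and 12 did not pass. P4ha2, a catalytic subunit of prolyl 4-hydroxylase, read 11.46 and 11.47 in controls and 12.02 and 12.03 in Bmp4 OE (0.56 ± 0.10, adjusted p = 0.025). P3h4, a partner of the lysyl and prolyl hydroxylase complexes, rose by 0.86 ± 0.13 on the log2 scale (adjusted p = 0.0192). P3h2, a prolyl 3-hydroxylase known to act on type IV collagen, read 9.79 and 9.96 in controls and 8.71 and 9.13 in Bmp4 OE, a 1.94-fold fall (adjusted p = 0.0244). Of 9 measured folding and secretion genes 1 fell and 0 rose. It was Kdelr2, a retrieval receptor of the secretory pathway, with -0.46 ± 0.10 (adjusted p = 0.0418) and -0.26 over the mean of its probes (adjusted p = 0.145). Serpinh1, the collagen chaperone Hsp47, had -0.10 and did not pass.

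Among 11 measured genes of procollagen processing and cross-linking, 1 rose, 1 fell and 9 did not pass. Pcolce2, an enhancer of procollagen C-proteinase, rose by 0.56 ± 0.12 on the log2 scale (adjusted p = 0.0367, and 0.0532 with housekeeping centring), and Adamts3, a procollagen N-proteinase, had -0.68 ± 0.15 (adjusted p = 0.0397). Of 15 regulators of fibril assembly 3 rose, 1 fell and 11 did not pass. Bgn, the proteoglycan biglycan, read 12.08 and 12.21 in controls and 12.92 and 13.08 in Bmp4 OE, a 1.81-fold rise (adjusted p = 0.0141). Dcn, the related decorin, rose 1.81-fold at its brightest probe (adjusted p = 0.0115), and the mean of its probes gave 0.40 (adjusted p = 0.13). Sparc, a collagen-binding glycoprotein, rose by 0.74 ± 0.13 and Fbln1, fibulin-1, had -0.63 ± 0.12 (adjusted p = 0.0256 and 0.028).

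Of 9 measured collagen receptors 1 rose, 1 fell and 7 did not pass. Itga11, the integrin alpha 11 subunit by which mesenchymal cells hold type I collagen, read 10.98 and 11.37 in controls and 9.61 and 9.81 in Bmp4 OE. Both Bmp4 OE arrays lay below both controls, and the fall was 2.76-fold (-1.47 ± 0.16, adjusted p = 0.00951), while the mean of its probes gave -0.92 (adjusted p = 0.0108). Ddr1, a receptor tyrosine kinase for collagen found mainly in epithelium, rose 1.69-fold (adjusted p = 0.014), while the mesenchymal Ddr2 had -0.40 and did not pass (adjusted p = 0.0576). Of 7 enzymes that cleave collagen or gelatin 1 rose, 2 fell and 4 did not pass. Mmp2, a gelatinase, rose 1.56-fold (adjusted p = 0.0247), Ctsk, the collagen-cleaving cathepsin K, fell 1.49-fold (adjusted p = 0.0386), and Fap, a fibroblast protease, read 8.21 and 7.95 in controls and 6.87 and 7.0 in Bmp4 OE, a 2.21-fold fall (adjusted p = 0.0101). Over these 6 lists the medians of the log2 fold changes lay between -0.19 and 0.045, near the 0 of all named genes.

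**Figure D4:**
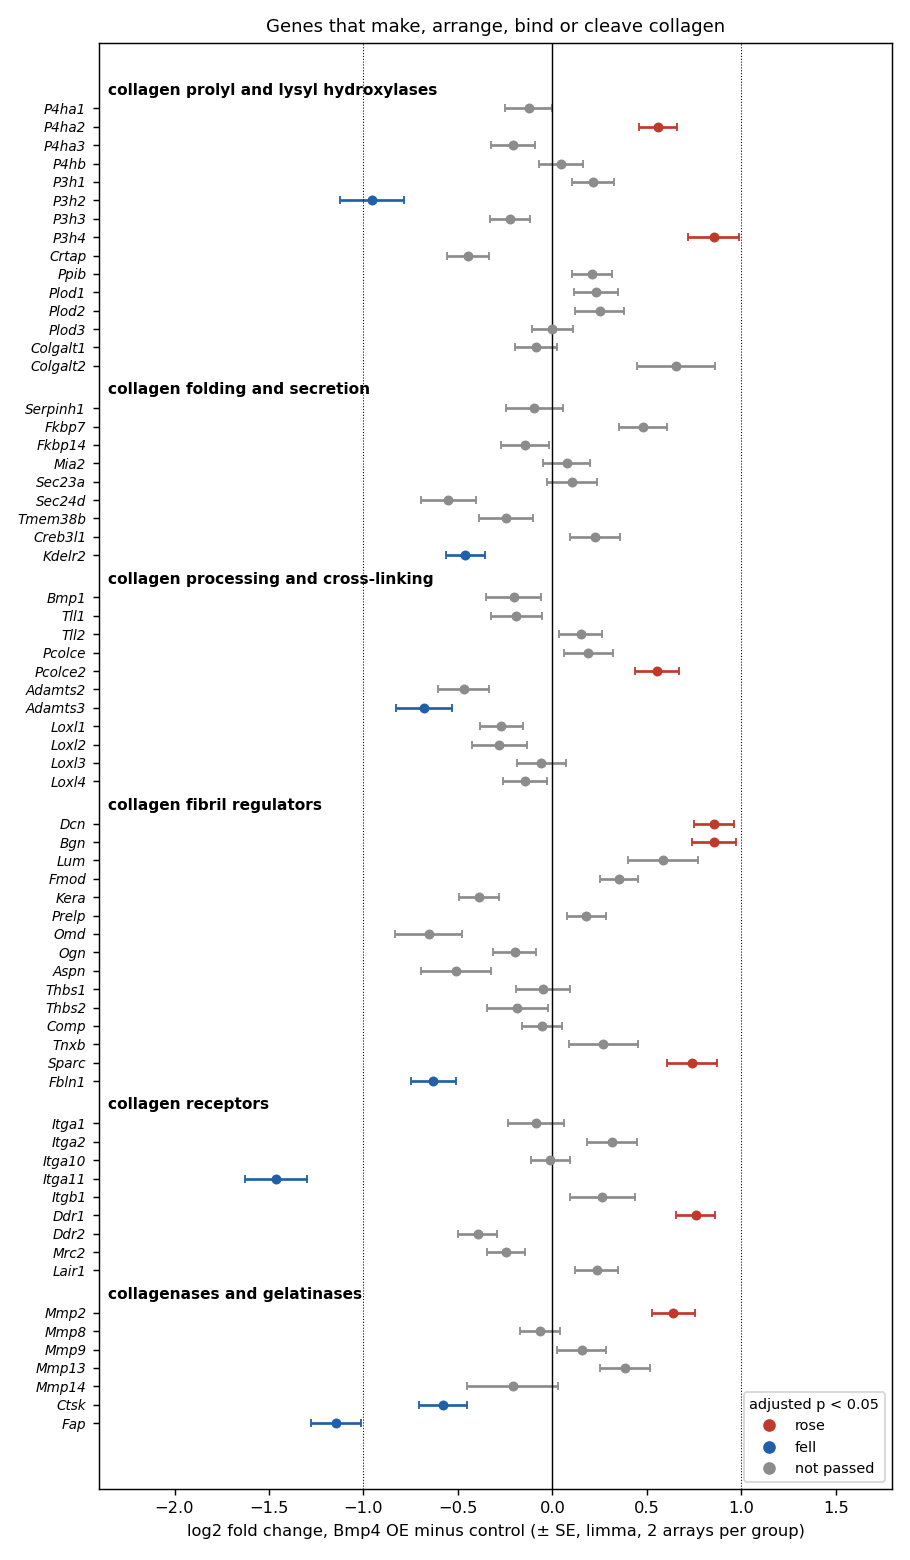
Log2 fold change of Bmp4 OE over control for genes that make, arrange, bind or cleave collagen, as points with the SE of the limma fit (2 arrays per group); dotted lines mark a 2-fold change. Itga11 at -1.47 and Fap at -1.15 lie furthest to the left, and Dcn, Bgn and P3h4 at 0.86 furthest to the right.

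Markers of other cells that a mandible can hold are given next. For scale, 7.39% of all named genes rose and 9.54% fell, and 6063 of the 16637 had an unadjusted p under 0.05 (limma). Of 8 muscle markers 3 rose (Des, Actc1 and Tnnt1) and 0 fell. Their sums of linear intensity, in which bright genes weigh most, were 8990 to 9746 in controls and 15450 to 15820 in Bmp4 OE. Tnnt1, a bright one, read 11.59 and 11.2 in controls and 12.75 and 12.72 in Bmp4 OE. Myod1 and Myog did not pass, with 0.125 and 0.015 on the log2 scale. Pax7 lay below the lower quartile on all arrays. Of 8 neuron markers 1 rose (Isl2), 0 fell and 7 did not pass (25580 to 35710 and 48900 to 50500), with Pou4f1 below that quartile. Most of the neuron sum is Elavl3, which read 14.47 and 15.01 in controls and 15.46 and 15.52 in Bmp4 OE without passing. Of 6 macrophage markers 2 rose and 0 fell (2129 to 2332 and 3131 to 3542), with Ptprc below it. Of 4 measured Schwann and glia markers 0 passed in limma and 1 had an unadjusted p under 0.05 (1234 to 1331 and 929 to 1105), with Foxd3 below it. Of 4 measured erythroid markers 1 fell (197100 to 203400 and 191600 to 195300). The part of these cells in the collagen values was not tested.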

How the data were processed

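Expression was measured in 2 control and 2 Bmp4 OE mandible samples. Amplified aminoallyl RNA was coupled to Cy5, per the labels' protocols. The authors deposited log2 intensities of 29922 probes, 1 value for each array. The log base was read from the maximum of 16, and the sorted columns were identical (largest difference 0), so the authors' values had been quantile-normalised. The scanner, its software and any background correction are steps not given in the sources used here. Such values cannot show a shift of most genes, and changes near 16 or below 6.79 are understated.

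Of the probes, 21020 had 1 gene symbol, 0 several and 8902 none, and 3410 symbols were updated through the GRCm38.p6 RefSeq gene table. Every probe was fitted with limma 3.58.1 in R 4.3.3 (lmFit, eBayes, no covariate, two-sided; 2 residual and 3.59 prior degrees of freedom), and p-values were adjusted over all probes by the Benjamini-Hochberg method. This step was also tested on simulated data. No set test was run. Collagens, classes and gene lists were chosen with earlier results of these data known. Every collagen may be named, with each array's value for those past either threshold and for Col1a1, Col1a2, Col3a1, Col4a1 and Col4a2, and the pathway genes named are those past the adjusted threshold. Serpinh1, Ddr2, Col7a1, Col13a1, Col14a1 and Col20a1 were added after their values were seen. Sequences are RefSeq promoters of GRCm38.p6, found for 30 of the 37 collagens. Alternatives covered the intensity scale, dim probes, normalisation, variance model, probe choice, the replicate number as a block, and each array left out.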

Additional observations from a re-analysis of the deposited data

How the results depend on the processing

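Outside the replicate block and the left-out arrays, the 9 falls and 2 rises kept their direction and their call in the alternatives run where they were tested, with the exception of Col5a2 over the mean of its probes; Col8a2 was not tested without probes below the median. Counts of falling collagens in those settings lay between 9 and 13. The titles share replicate numbers, but same-numbered arrays did not deviate together (r = -0.0711 across probes). This cannot exclude a pairing that touches part of the probes, so whether the arrays were paired is unknown. With the replicate block 0 collagens rose and 0 fell, as did 0 genes of each class and list. That fit had 1 residual degree of freedom and a lowest adjusted p of 0.0745 over all probes (limma). In it 15 of the 37 collagens and 8724 of the 29922 probes had an unadjusted p under 0.05. No call at the adjusted threshold remained with 1 array left out. With the mean of all probes of a gene 1 collagen rose, 3 were lower past 2-fold, and 0 folding and secretion genes passed. Centring on the 9 measured housekeeping genes moved the median of all probes by -0.118. The log2 fold changes of these 9 genes ran from -0.475 to 0.575 in the main fit, so this reference was itself uneven. With that centring 0 collagens were higher past 2-fold. In the same setting 2 basement membrane collagens, 2 transmembrane collagens, 2 folding and secretion genes and 7 fibril regulators passed. With log2 of the linear value plus 50, 2 basement membrane and 2 transmembrane collagens passed; with a variance trend, 2 basement membrane collagens and 2 folding genes; without probes below the median, 2 transmembrane collagens and 3 folding genes; with robust eBayes, 3 folding genes.

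Signs turned only in collagens that did not pass. With housekeeping centring the log2 fold changes were -0.003 for Col5a3, -0.088 for Col11a2, -0.113 for Col4a3, -0.113 for Col4a4, -0.088 for Col6a6, -0.048 for Col10a1 and -0.048 for Col16a1. Cyclic loess gave 0.009 for Col5a1, and the mean of all probes gave 0 for Col19a1 and 0.01 for Col25a1. With 1 array left out the ranges were -0.56 to 0.19 for Col1a2, -0.125 to 0.115 for Col5a1, -0.025 to 0.255 for Col5a3, -0.185 to 0.245 for Col11a2, -0.09 to 0.1 for Col4a3, -0.07 to 0.08 for Col4a4, -0.115 to 0.175 for Col6a6, -0.06 to 0.2 for Col10a1, -0.06 to 0.2 for Col16a1 and -0.005 to 0.265 for Col22a1. The cause of these changes was not tested. Col4a3, Col4a4, Col6a6, Col10a1 and Col12a1 are limited by signal below the lower quartile on all arrays.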
